A study of Mus musculus with 6 samples.

Results

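Livers of fasted mice that lack Gapdh in hepatocytes and drank serine were compared with livers of fasted control mice that drank plain water. The comparison used 4 of the 6 libraries of an RNA-seq study, 2 in each group, chosen by the genotype and drinking-water labels. The knockout animals carried the genotype GapAlb, named in the study's title as a knockout of GAPDH in hepatocytes, and their water held 5% serine. What drove the deletion was not given in the sources used here. Controls carried the genotype Gapfl and drank water without serine. The other 2 libraries came from GapAlb animals on plain water and are given beside the results. All animals were 12-week-old males fasted for 16 h, and each library pooled liver RNA of 2 mice. Both genotype and drink differ between the groups compared. The knockouts on water give the difference with genotype on plain water and that with serine within knockouts, while no Gapfl animals on serine were analysed here, so a change with serine in controls, or one that depends on genotype, was not tested. With 2 pools a group, a p-value measures only the spread between pools, and in bulk liver fewer cells of a type cannot be told apart from less RNA per cell.

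Glyceraldehyde-3-phosphate dehydrogenase carries out the step of glycolysis that makes NADH from NAD+ in the cytosol, and the same enzyme runs in reverse in gluconeogenesis. Glycolysis supplies the precursor of serine, an amino acid that feeds the folate one-carbon cycle, glycine, sphingolipids and phosphatidylserine. A fasted liver burns fatty acids, makes ketone bodies and releases glucose, while it goes on secreting most plasma proteins.

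Levels are the authors' FPKM, fragments scaled to gene length and to the mapped fragments of the library. Of 55414 annotated genes, 22014 had a value above 0 in any library and 11134 averaged at least 1 FPKM across all 6 libraries and were tested. Fold changes are differences of log2(FPKM + 0.5), a scale that understates the change of low genes, and adjusted p-values come from limma with Benjamini-Hochberg adjustment over all genes tested. The low values of single-exon genes implied between 17860000 and 19760000 fragments per library. Of all genes tested, 66.3% had positive log2 fold changes against control with serine and 58.9% on water. The median change of all genes tested was 0.16 on the log2 scale, so the medians of gene groups with serine are also given relative to it. Under median-of-ratios scaling, which sets the median gene to no change, that shift was 0.00. Genes of the mitochondrial genome took 12.3% and 12.2% of summed FPKM in the controls, 9.70% and 12.6% in knockouts on water and 12.0% and 8.89% in knockouts on serine. The second knockout pool on serine thus had the lowest mitochondrial share of all 6 libraries, and the part of this in other results was not tested.

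Gapdh, the deleted gene (chr6:125138678-125143430 of GRCm39, minus strand), stood at 1091 and 1391 FPKM in the controls, against 20 and 23.5 FPKM with serine. Knockouts on water had 23.8 and 17.0 FPKM. All 4 knockout libraries lay far below both controls, so the values went with the labels. The fall against control with serine was 57.0-fold in mean FPKM, a log2 fold change of -5.80 (SE 0.21, adjusted p = 0.000343). The knockouts on serine and on water differed by 0.11 on the log2 scale, with a 95% interval from -0.39 to 0.61. An annotated locus of unknown coding status on chromosome 5, Gm43778, was listed at 0 in both controls. It had 51.6 and 81.5 FPKM in the knockouts on serine and 74.0 and 54.5 FPKM on water. Gapdh and Gm43778 were called in each fit that left out one of the 4 compared libraries.

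With serine, 95 genes were higher than in control on water and 36 were lower, which is 0.853% and 0.323% of the genes tested. Of these, 73 higher and all 36 lower genes changed by at least 2-fold. The knockouts on water, set against the same 2 control libraries, had 90 higher and 45 lower genes, 0.808% and 0.404% of those tested. These shares are the background for each count of called list members given below. The called higher genes had a median log2 fold change of 1.22 with serine and 1.04 on water, and the called lower genes had -1.66 and -1.44. These genes were selected for their serine values and both comparisons share the control libraries, so these medians are a description and neither their closeness nor their order is a result. Knockouts on serine and on water were also compared with each other, and limma called 0 genes (0% of those tested, smallest adjusted p = 0.200). At an unadjusted p under 0.05 that comparison held 805 genes, 578 higher and 227 lower with serine. The median half-width of the 95% interval of a gene's difference was 0.50 on the log2 scale. That is a limit before adjustment for the number of genes. After adjustment much larger differences between the drinks also went uncalled, such as -2.54 for Mt2 (adjusted p = 0.374).

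**Figure D1:**
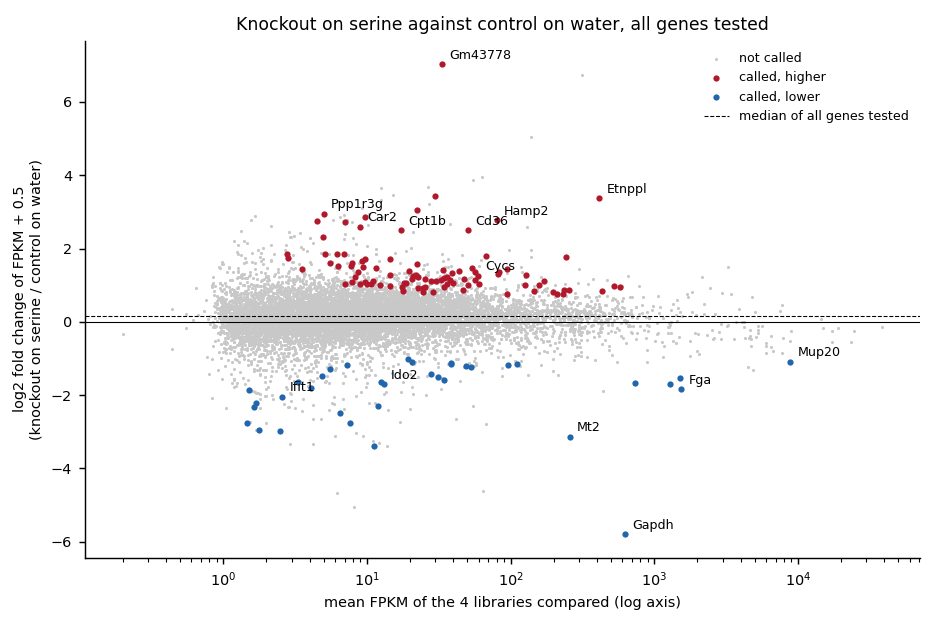
Each point is a gene tested, with the mean FPKM of the 4 libraries compared on a logarithmic x axis and the log2 fold change of FPKM + 0.5, knockout on serine over control on water, on the y axis. Red points are the 95 genes called higher and blue points the 36 called lower; Gapdh lies lowest at -5.80, Gm43778 lies highest at 7.03 with controls listed at 0, and the dashed line is the median gene at 0.16.

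How many genes passed depended on the scaling and on single libraries. Of the calls, 72.5% were higher; the split was 15 higher and 20 lower (42.9% higher) under median-of-ratios scaling and 389 higher and 60 lower (86.6% higher) with FPKM rescaled to TPM. All 131 called genes kept their sign under median-of-ratios scaling and 35 kept their call, while the other 96 had adjusted p-values from 0.0504 to 0.0855. Those keeping it among the genes described here were Gapdh, Gm43778, Mt2, Asic5, Ifit1, Ifit3, Fga, Fgb, Fgg, Mug1, Ido2, Sdr9c7, Cdkn1a, Amy1, Car2, Cpt1b, Ppp1r3g, Hamp2, Olig1, Spata24, Sptlc2, Slc25a11, Cycs and Slc3a2. Leaving out one of the 4 compared libraries left 8, 5, 239 or 4 calls, the 239 without the first serine pool, and leaving out a pool on water, which enters the shared spread, left 4 or 7. Car2 and Cpt1b kept their call in 2 of these 4 fits, 77 of the 131 genes in 1 and 50 in none. Libraries that did not overlap between the 2 groups were common, with 41.5% of all genes higher and 15.5% lower, so such a gap alone says little about a gene.

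Of 52 genes of fatty acid oxidation and ketogenesis, 2 rose with serine, Cpt1b and Slc27a1, and none fell. Of all genes tested, 0.853% rose and 0.323% fell. Cpt1b is the muscle form of carnitine palmitoyltransferase, which readies fatty acids for entry into mitochondria. It stood at 5.64 and 4.11 FPKM in the controls and at 29.9 and 29.5 FPKM with serine. Both knockout groups lay well apart from the controls, with 37.3 and 43.6 FPKM on water. The rise with serine was 2.51 (SE 0.18, adjusted p = 0.0107), and serine minus water was -0.43 with an interval from -0.87 to 0.00. Cd36, a fatty acid uptake receptor at the cell surface, had 17.8 and 11.4 FPKM in the controls, 71.7 in both pools on water and 110 and 63.4 FPKM with serine. It rose by 2.5 (SE 0.30, adjusted p = 0.0370). Slc27a1, which takes up fatty acids and activates them, rose by 1.33 (SE 0.18, adjusted p = 0.0427). Gpat3, an acyltransferase of glycerolipid synthesis, rose by 1.49 (adjusted p = 0.0370), and Fitm2, an endoplasmic reticulum protein needed for lipid droplets, by 0.96 (adjusted p = 0.0490). Gpat3 and Fitm2 stand in none of the lists used and were picked from the called genes after their values were seen, as was the grouping of Cd36 with the others.

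The wider list of fatty acid oxidation and ketogenesis genes had a median close to that of all genes. On water 9 of the 52 rose and none fell, against 0.808% and 0.404% of all genes tested. The members' median was 0.08 with serine, 0.08 below the median gene, and it was -0.10 under median-of-ratios scaling. Pex11a, a protein of peroxisome division, had 80 and 76.8 FPKM in the controls, 183 and 212 on water and 159 and 129 FPKM with serine. Its change of 0.87 with serine lay just outside the threshold (adjusted p = 0.0520), after 1.32 on water (adjusted p = 0.0306). The serine-minus-water interval lay wholly below 0 for 8 members and wholly above 0 for none, against 227 and 578 of all 11134 genes tested. These intervals were not adjusted for the number of genes. Cyp4a32, a fatty acid hydroxylase, showed the widest such gap among members called on water, at -1.13 (interval -1.67 to -0.60). Reads of the Cyp4a genes can be shared between close copies, so their values are uncertain. Pdk4, the kinase that shuts pyruvate dehydrogenase during fasting, had 16.5 and 5.63 FPKM in the controls and 68.5 and 60.4 FPKM with serine. The groups did not overlap, yet its change of 2.67 had an adjusted p of 0.0522.

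Several enzymes of mitochondrial energy metabolism encoded in the nucleus rose with serine. Citrate synthase (Cs) had 29.2 and 28.7 FPKM in the controls, 62.7 and 56.7 on water and 58.8 and 72.9 FPKM with serine. It rose by 1.16 (SE 0.15, adjusted p = 0.0370). The 2 controls lay within a few percent of each other, and every knockout pool was above them. Idh2, which makes NADPH in mitochondria, and Mdh2, mitochondrial malate dehydrogenase, rose by 1.45 and 0.76. In all, 4 of 18 enzymes of the tricarboxylic acid cycle rose and none fell, against 0.853% and 0.323% of all genes tested. All 18 had values above 0, and their median was 0.69, or 0.53 above the median gene. Under median-of-ratios scaling 17 of the 18 were above 0, and without it 66.3% of all genes were. On water 2 rose, against 0.808% of all genes, and the median of the 18 was 0.57. The list of this cycle was drawn up after values of these libraries had been seen. No member had a serine-minus-water interval clear of 0, and Fh1 and Suclg2 had the intervals -0.61 to 0.43 and -0.26 to 0.43.

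The respiratory chain had a smaller median. Of 57 nuclear genes of oxidative phosphorylation, 5 rose and none fell, against 0.853% and 0.323% of all genes tested. Among the 57, 54 had positive values, with a median of 0.44 (0.28 above the median gene). Positive values were found for 66.3% of all genes and, under median-of-ratios scaling, for 47 of the 57. Cycs, cytochrome c, had 35 and 34.3 FPKM in the controls and 80.6 and 86.2 FPKM with serine, against 70.6 and 84.8 FPKM on water. It rose by 1.25 (SE 0.14, adjusted p = 0.0350). The complex I subunits Ndufc2, Ndufa8 and Ndufb10 rose by 1.01, 0.84 and 0.75, and the complex III core protein Uqcrc1 rose by 0.81. Slc25a5, an ADP/ATP carrier of the inner membrane, had 314 and 305 FPKM in the controls and 542 and 568 FPKM with serine, a rise of 0.84 (adjusted p = 0.0427); it was picked after its value was seen. The 13 mRNAs encoded by the mitochondrial genome had no called member, 11 negative values and a median of -0.44, or 0.61 below the median gene. On water their median was -0.34. Their FPKM summed to 99571 and 105303 in the controls, 75878 and 100064 on water and 95402 and 69900 with serine, so the pools within each knockout group differed. Among them mt-Nd2 had 7711 and 7657 FPKM in the controls and 5060 and 3562 FPKM with serine (log2 fold change -0.86, adjusted p = 0.0715). Slc25a11, the oxoglutarate-malate carrier of the malate-aspartate shuttle that moves cytosolic NADH equivalents into mitochondria, had 45.0 and 47.2 FPKM in the controls, 118 and 109 on water and 109 and 131 FPKM with serine. Slc25a11 rose by 1.36 (SE 0.14, adjusted p = 0.0342). It and Mdh2 were the only calls among 21 tested genes that shuttle NADH equivalents or handle lactate or glycerol. Of all genes tested, 0.853% rose and 0.323% fell. Among the 21, 12 had positive and 9 had negative values. Their median was 0.06, which was 0.11 below the median gene and -0.12 under median-of-ratios scaling. Dlat, the acetyltransferase of pyruvate dehydrogenase, rose by 0.95, as 1 of 12 genes of that complex and its kinases.

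**Figure D2:**
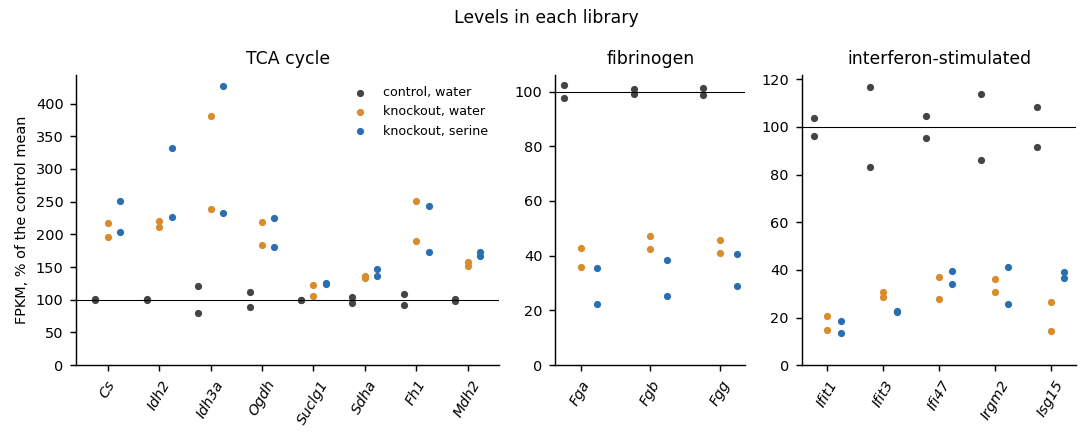
Each point is a library's FPKM as a percentage of the control mean, for tricarboxylic acid cycle enzymes, the 3 fibrinogen chains and 5 interferon-stimulated genes, with controls in black, knockouts on water in orange and knockouts on serine in blue. The blue points for Cs lie at more than 2 times the control mean, and those of the fibrinogen chains and Ifit1 lie below every control point.

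Glycolysis had 2 called members of 23 tested, both higher and both enzymes downstream of the deleted one. Of all genes tested, 0.853% were called higher. Eno1, enolase, rose by 0.97 from 351 and 360 FPKM to 653 and 746 FPKM, and Pgam1, phosphoglycerate mutase, rose by 1.12 from 106 and 107 FPKM to 207 and 259 FPKM (adjusted p = 0.0370 and 0.0388). On water the same genes had 0.81 and 0.94. Processed copies of both exist in the mouse genome, so part of their reads may be assigned to copies. The list's median of 0.67 lay 0.51 above that of all genes. Among genes of glucose output, Ppargc1a, a coactivator of the fasting response, rose by 1.54 and the orphan nuclear receptor gene Nr4a1 by 2.32, as 2 of 24. These 24 genes had a median of 0.26, which was 0.10 above the median gene and 0.08 under median-of-ratios scaling. Of them, 16 lay above the median gene and 8 below it. Pck1, the enzyme that commits oxaloacetate to gluconeogenesis, had 1920 and 1510 FPKM in the controls and 3047 and 3367 FPKM with serine (0.91, adjusted p = 0.0547).

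Ppp1r3g, a subunit that targets protein phosphatase 1 to glycogen, was low in the controls, at 0.69 and 0.72 FPKM. It had 15.6 and 11.4 FPKM on water and 12.4 and 6.25 FPKM with serine, so both knockout groups were well above control and overlapped each other. The rise with serine was 2.95 (SE 0.33, adjusted p = 0.0354), the only call among 20 genes of glycogen metabolism.

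Serine was supplied to these animals, and most genes that make or use it did not pass the test. Of 37 genes in the serine, glycine and one-carbon list, 1 rose and none fell, against 0.853% and 0.323% of all genes tested. The list's median of 0.12 was 0.04 below the median gene and -0.05 under median-of-ratios scaling. The called gene was Sptlc2, a subunit of the palmitoyltransferase that joins serine to palmitoyl-CoA in the first step of sphingolipid synthesis. Sptlc2 stood at 4.39 and 4.16 FPKM in the controls, 14 and 17.8 on water and 14.6 and 15.9 FPKM with serine. It rose by 1.72 with serine (SE 0.17, adjusted p = 0.0342) and by 1.77 on water, and the interval of their difference ran from -0.46 to 0.35. Ptdss2, which exchanges ethanolamine for serine in phospholipids, had 4.42 and 3.90 FPKM in the controls, 20.7 and 13 on water and 12.6 and 16.3 FPKM with serine. It rose by 1.67 (SE 0.25, adjusted p = 0.0454), and with Sptlc2 it made 2 called of 15 tested genes that use serine in sphingolipid and phospholipid synthesis, a list drawn up after values had been seen. Gal3st1, which adds sulphate to galactosylceramide, rose by 1.86 (adjusted p = 0.0454) and was picked after its value was seen.

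Psat1, the aminotransferase of serine synthesis, had 0.18 and 0.34 FPKM in the controls, 1.73 and 1.36 on water and 1.80 and 2.72 FPKM with serine. Its change of 1.85 lay at the threshold (adjusted p = 0.0506), and serine minus water was 0.42 with an interval from -0.33 to 1.17. Etnppl, the lyase that breaks down phosphoethanolamine, was among the most abundant genes of large change. It stood at 87.7 and 51.5 FPKM in the controls, 645 and 399 on water and 478 and 1040 FPKM with serine, a rise of 3.38 (SE 0.44, adjusted p = 0.0370). The 2 serine pools straddled the higher water pool. Pdxk, the kinase that makes the vitamin B6 cofactor of such lyases and aminotransferases, rose by 1.71 (adjusted p = 0.0454) and was picked after its value was seen.

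**Figure D3:**
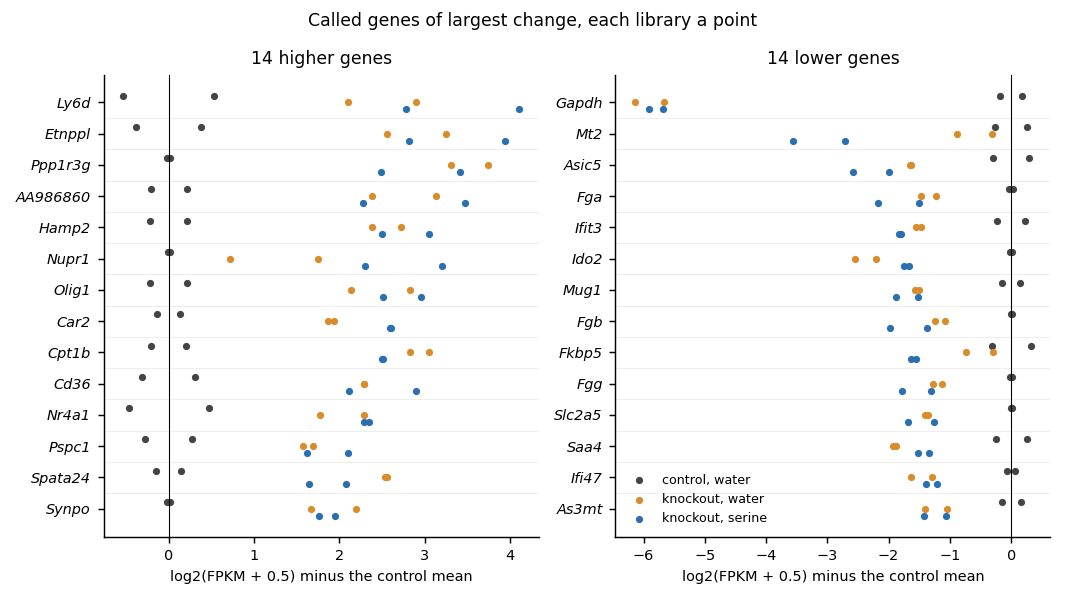
Each point is a library, placed by log2(FPKM + 0.5) minus the control mean, for the 14 higher and 14 lower called genes of largest change. Only genes with non-overlapping serine and control libraries were eligible. By that choice, blue points (knockouts on serine) lie clear of the black control points. Orange points (knockouts on water) come close to the control points of Mt2 and overlap those of Fkbp5.

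The clotting protein fibrinogen was lower in all 3 of its chains. Fga had 2454 and 2348 FPKM in the controls, 864 and 1026 on water and 850 and 532 FPKM with serine. Fgb fell from 1123 and 1105 FPKM to 427 and 282 FPKM, and Fgg from 2285 and 2230 FPKM to 913 and 656 FPKM. For each chain the serine pools lay below every other library. The log2 fold changes were -1.83, -1.68 and -1.54 with serine (SE 0.23, 0.21 and 0.18, adjusted p = 0.0370 for each), against -1.35, -1.16 and -1.20 on water. The 3 genes neighbour each other on chromosome 3, between 82915031 and 82957170 of GRCm39. The serine-minus-water differences were -0.48, -0.52 and -0.34, with intervals of -1.04 to 0.07, -1.01 to -0.03 and -0.78 to 0.10.

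Fibrinogen is made with the acute phase proteins, whose list moved in both directions. Of 31 members, 2 rose and 5 fell, against 0.853% and 0.323% of all genes tested. Their median was -0.29 (0.45 below the median gene), and the same median on water was 0.05. The other falls were Mt2, described below, and Saa4, a constitutive serum amyloid, which fell by 1.43 (adjusted p = 0.0427). Hamp2, a close copy of the iron hormone gene hepcidin, went the other way. It had 17.0 and 22.9 FPKM in the controls, 133 and 105 on water and 114 and 167 FPKM with serine, a rise of 2.78 (SE 0.24, adjusted p = 0.0248). Reads of Hamp2 and Hamp can be shared, so its level is uncertain. Il1rn, the interleukin 1 receptor antagonist, rose by 1.22.

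Other abundant secreted proteins had lower values without passing the test. None of 32 hepatocyte secreted proteins was called, 30 had negative values, 28 had non-overlapping lower libraries against 15.5% of all genes, and their median was -0.38, or 0.54 below the median gene. Serpinf2, the plasmin inhibitor, had 446 and 454 FPKM in the controls and 262 and 200 FPKM with serine (-0.97, adjusted p = 0.0526). Mug1, a murinoglobulin that traps proteases, did pass. It fell by 1.70 from 2167 and 1778 FPKM to 681 and 535 FPKM (adjusted p = 0.0342), though close murinoglobulin copies make its level uncertain. Mup20, a major urinary protein, fell by 1.09 from 11312 and 12746 FPKM to 6176 and 5144 FPKM, with the same limit. Albumin itself had 43650 and 37941 FPKM in the controls and 37983 and 35698 FPKM with serine, so the groups overlapped.

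A pair of enzymes that break down tryptophan along the kynurenine route fell. Ido2, an indoleamine dioxygenase, stood at 20 and 20.6 FPKM in the controls, 3.06 and 3.99 on water and 6.09 and 5.71 FPKM with serine. It fell by 1.70 with serine (SE 0.17, adjusted p = 0.0342) and by 2.38 on water. Its serine pools lay between the other groups, and serine minus water was 0.68 with an interval from 0.26 to 1.09 (adjusted p = 0.64). Afmid, the formamidase of the next step, fell by 1.22 (adjusted p = 0.0454). These were the only calls among 44 genes of amino acid catabolism and the urea cycle, whose median was 0.20, or 0.04 above the median gene.

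Some interferon-stimulated genes, which as a group inhibit viruses and present antigens, fell. Ifit1 had 4.6 and 4.27 FPKM in the controls, 0.65 and 0.91 on water and 0.82 and 0.59 FPKM with serine. Ifit3 had 5.51 and 7.74 FPKM in the controls and 1.48 and 1.52 FPKM with serine. Both fell, by 2.04 and 1.82 (SE 0.26 and 0.23, adjusted p = 0.0370 for each), as did Ifi47, an interferon-inducible GTPase, by 1.30. Of 35 members tested, 3 fell and none rose with serine, against 0.323% and 0.853% of all genes. On water 6 fell and none rose, against 0.404% and 0.808%. The median was -0.61 with serine, 0.78 below the median gene, and -0.88 on water. Isg15, a ubiquitin-like modifier, had 16.7 and 14.1 FPKM in the controls, 4.11 and 2.21 on water and 5.62 and 6.01 FPKM with serine. It was called on water (-2.17, adjusted p = 0.0317) and not with serine (-1.33, adjusted p = 0.0601), and serine minus water was 0.84 with an interval from 0.19 to 1.48. Several members, among them Bst2 and B2m, had values near or above 0. Ifi47 had an adjusted p of 0.0504 under median-of-ratios scaling.

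The promoters of the 2 called Ifit genes are shown because they fell together. In 250 bases before to 50 after the gene start, both hold 3 matches to the core of the interferon-stimulated response element, searched as GAAANNGAA on both strands; the capitals mark the matches, of which 2 overlap in Ifit1. This core occurs in 8.56% of 32851 mouse promoters of the same length and in 14 of 26 promoters available for the interferon-stimulated genes. A match describes letters and does not show binding. Sequences are from RefSeq on GRCm38.p6, Ifit1 at chr19:34640639-34640938 and Ifit3 at chr19:34583279-34583578, both on the plus strand.
Ifit1: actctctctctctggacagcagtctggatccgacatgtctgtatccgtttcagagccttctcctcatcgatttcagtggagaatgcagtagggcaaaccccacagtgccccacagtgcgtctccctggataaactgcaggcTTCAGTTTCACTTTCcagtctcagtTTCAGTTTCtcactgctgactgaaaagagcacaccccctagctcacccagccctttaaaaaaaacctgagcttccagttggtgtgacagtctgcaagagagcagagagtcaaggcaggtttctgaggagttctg
Ifit3: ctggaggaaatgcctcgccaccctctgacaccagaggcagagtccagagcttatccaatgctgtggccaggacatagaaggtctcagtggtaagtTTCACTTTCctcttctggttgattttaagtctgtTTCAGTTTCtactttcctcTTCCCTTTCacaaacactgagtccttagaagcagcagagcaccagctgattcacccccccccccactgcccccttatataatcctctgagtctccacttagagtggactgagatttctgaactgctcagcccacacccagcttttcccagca

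Of the 131 called genes, Mt2 had the smallest unadjusted p between knockouts on serine and on water. Mt2, a small protein that binds zinc and copper, stood at 383 and 546 FPKM in the controls, 247 and 368 on water and 38.1 and 69.2 FPKM with serine. The serine pools lay below all 4 other libraries, while the water pools lay below both controls by a narrow margin. Mt2 fell by 3.14 with serine (SE 0.34, adjusted p = 0.0350), an 8.65-fold lower mean FPKM, against -0.60 on water (adjusted p = 0.354). The difference between serine and water was -2.54 with an interval from -3.35 to -1.73, and its adjusted p of 0.37 over all genes did not pass. Mt1, the neighbouring gene, had 667 and 682 FPKM in the controls, 816 and 612 on water and 113 and 292 FPKM with serine. Its water pools straddled the controls and its serine pools lay below them, with a log2 fold change of -1.89 that did not pass (adjusted p = 0.0665). Over 19 metallothionein and zinc transporter genes tested, Mt2 was the only call and the median was 0.11, which is 0.06 below the median gene and -0.06 under median-of-ratios scaling. That list, too, was drawn up after values had been seen.

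Mt2 and Mt1 lie next to each other on chromosome 8, and their promoters are printed because the 2 genes had low values in the same serine pools. The capitals mark the core of the metal response element, searched as TGCACNC or TGCGCNC on both strands, with 4 matches in Mt2 and 3 in Mt1. This short core occurs in 25.7% of the 32851 promoters and in 10 of 17 promoters of the metallothionein and zinc transporter list, and it was added after the values were seen. RefSeq places them, on GRCm38.p6, at chr8:94172368-94172667 and chr8:94178839-94179138 on the plus strand.
Mt2: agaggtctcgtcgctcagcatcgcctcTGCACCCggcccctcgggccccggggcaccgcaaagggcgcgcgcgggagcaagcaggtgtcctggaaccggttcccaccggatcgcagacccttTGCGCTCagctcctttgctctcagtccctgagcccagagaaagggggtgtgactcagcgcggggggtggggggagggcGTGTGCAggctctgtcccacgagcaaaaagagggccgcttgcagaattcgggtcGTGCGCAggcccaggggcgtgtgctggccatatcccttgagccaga
Mt1: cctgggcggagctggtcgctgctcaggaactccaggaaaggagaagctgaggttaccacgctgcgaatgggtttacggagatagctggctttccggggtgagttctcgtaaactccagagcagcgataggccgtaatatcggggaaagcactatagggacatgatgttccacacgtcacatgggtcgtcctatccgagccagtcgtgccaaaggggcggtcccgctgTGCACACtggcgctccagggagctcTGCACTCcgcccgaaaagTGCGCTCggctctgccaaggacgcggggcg

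Mt2 is also induced by glucocorticoids, as are Fkbp5 and Cdkn1a. Fkbp5, a co-chaperone of the glucocorticoid receptor, had 63.4 and 40.7 FPKM in the controls, 41.3 and 30.4 on water and 16.0 and 17.0 FPKM with serine. It fell by 1.59 with serine (SE 0.25, adjusted p = 0.0485), and the water pools overlapped the controls. Against water the serine pools differed by -1.08, with an interval from -1.67 to -0.49 (adjusted p = 0.64). Cdkn1a, the cell cycle inhibitor p21, had 58.9 and 47.9 FPKM in the controls, 36.3 and 38.4 on water and 24 and 24.2 FPKM with serine. It fell by 1.12 (SE 0.14, adjusted p = 0.0370). Serine minus water was -0.62, with an interval from -0.97 to -0.27 (adjusted p = 0.64). Among 22 glucocorticoid-induced genes, listed after values had been seen, these 3 fell and none rose, against 0.323% and 0.853% of all genes. With serine 8 of the 22 had non-overlapping lower libraries and 8 non-overlapping higher ones, against 15.5% and 41.5% of all genes. Positive values were held by 13 of the 22, against 66.3% of all genes. Their median was 0.17, which is 0.01 above the median gene and 0.00 under median-of-ratios scaling. The serine-minus-water interval was wholly below 0 for 8 of the 22 and wholly above 0 for none. Among all 11134 genes tested it was below 0 for 227 and above 0 for 578, without adjustment.

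Genes of cholesterol synthesis and uptake had a higher median with serine than on water, and 1 of them passed the test. Of 25 members tested, 1 rose against control and none fell, against 0.853% and 0.323% of all genes tested. All 25 had positive values with serine, with a median of 0.78 (0.62 above the median gene). Among all genes 66.3% had positive values with serine, and 21 of the 25 members did under median-of-ratios scaling. On water none passed, 17 of 25 were positive, against 58.9% of all genes, and the median was 0.26. Msmo1, a sterol oxidase, had 6.90 and 12.3 FPKM in the controls, 14.2 and 13.3 on water and 23.4 and 24.8 FPKM with serine (1.34, adjusted p = 0.0565). Idi1, an isomerase of the isoprenoid step, had 7.39 and 8.03 FPKM in the controls, 7.70 and 5.19 on water and 21.3 and 12.7 FPKM with serine (1.05, adjusted p = 0.0932). The serine-minus-water interval lay wholly above 0 for 8 of the 25 and wholly below 0 for none, without adjustment. Over all 11134 genes tested these counts were 578 above 0 and 227 below 0. The fatty acid and triglyceride synthesis list had no called member of 25 and a median of 0.51, or 0.35 above the median gene. Acly, which makes cytosolic acetyl-CoA for both pathways, had 21.2 and 22.1 FPKM in the controls and 36.5 and 45.4 FPKM with serine (0.90, adjusted p = 0.0522).

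**Figure D4:**
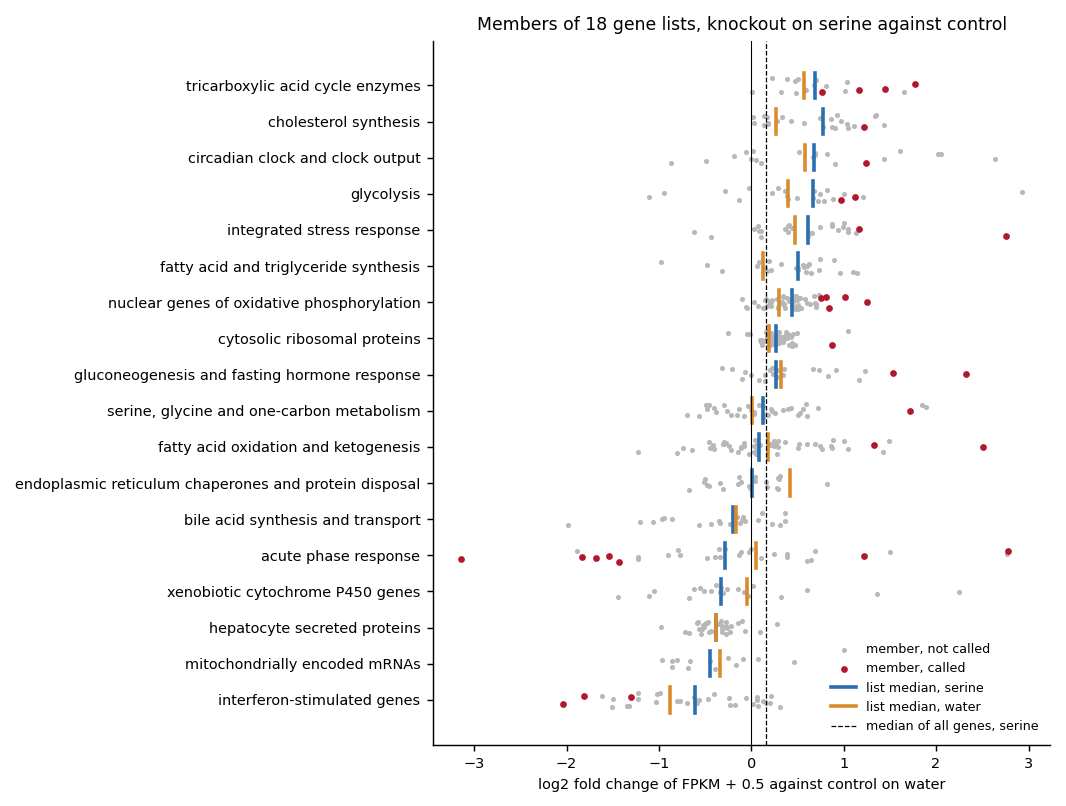
Each point is a gene of 1 of 18 lists, placed by its log2 fold change of FPKM + 0.5, knockout on serine over control on water; red points passed the test. Blue bars are the list medians with serine, orange bars those on water, and the dashed line is the median of all genes tested at 0.16; the cholesterol synthesis median lies at 0.78 with serine and 0.26 on water, and the endoplasmic reticulum chaperone median at 0.01 and 0.42, the former at -0.17 under median-of-ratios scaling.

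Nupr1, a small nuclear protein induced by stress and amino acid shortage, had 0.72 and 0.74 FPKM in the controls, 1.53 and 3.63 on water and 10.8 and 5.58 FPKM with serine. The 3 groups did not overlap, with serine highest. Nupr1 rose by 2.76 with serine (SE 0.43, adjusted p = 0.0485), and on water it was 1.24 (adjusted p = 0.17). Serine minus water was 1.52, with an interval from 0.50 to 2.54. It belongs to the integrated stress response, the programme run by the factor ATF4. Of 26 members of that list, 2 rose and none fell, against 0.853% and 0.323% of all genes tested. Among the 26, 24 had positive values and the median was 0.61 (0.45 above the median gene). Positive values were held by 66.3% of all genes and, under median-of-ratios scaling, by 19 of the 26. The other called member, Slc3a2, the heavy chain of amino acid exchangers, had 15.9 and 14.8 FPKM in the controls, 32.1 and 33.1 on water and 36.3 and 34.2 FPKM with serine. It rose by 1.17 (SE 0.13, adjusted p = 0.0350). Atf4 itself had 29.4 and 35 FPKM in the controls and 49.9 and 48.4 FPKM with serine (0.61, adjusted p = 0.129).

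The Nupr1 promoter is shown because this gene had the largest rise of the list. It holds 1 match to the element bound by complexes of ATF4 and C/EBP factors, searched as TGATGNAA on both strands and marked in capitals as read on the gene's strand. The element occurs in 3.97% of the 32851 promoters and in 9 of 23 available for the list. RefSeq gives it on GRCm38.p6 at chr7:126625421-126625720, minus strand.
Nupr1: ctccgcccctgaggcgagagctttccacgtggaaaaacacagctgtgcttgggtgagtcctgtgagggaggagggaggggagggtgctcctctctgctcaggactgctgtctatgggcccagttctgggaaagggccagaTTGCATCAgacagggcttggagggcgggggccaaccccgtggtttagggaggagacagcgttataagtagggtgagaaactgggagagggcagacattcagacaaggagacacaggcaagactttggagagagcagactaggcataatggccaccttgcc

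Car2, a cytosolic carbonic anhydrase, had its lowest values in the controls and its highest with serine. It had 2.44 and 1.93 FPKM in the controls, 9.73 and 9.26 on water and 15.7 and 15.6 FPKM with serine, with no overlap between any groups. The rise against control was 2.60 with serine (SE 0.17, adjusted p = 0.0080) and 1.90 on water. Serine minus water was 0.69, with an interval from 0.30 to 1.09 (adjusted p = 0.64). Gstp3, a glutathione transferase, had 10.7 and 13.4 FPKM in the controls, 15.8 and 15.9 on water and 24.5 and 26.8 FPKM with serine, a rise of 1.06 (adjusted p = 0.0454). Its relation to close Gstp copies makes the level uncertain. Car2 and Gstp3, like Mt2, Fkbp5, Cdkn1a, Ido2 and Sdr9c7, were among the called genes chosen for the smallest p between the drinks. That choice favours a gap between serine and water, so these gaps are a description and not a result.

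Some genes that were called on water lay nearer to control with serine, and none of these differences passed adjustment over all genes. They were chosen for being called on water and for a small p between the drinks, and both comparisons share the water libraries. That choice itself favours values nearer to control with serine, so the pattern is a description and not a result. Angptl8, a secreted regulator of lipoprotein lipase, had 21.5 and 20.3 FPKM in the controls, 10 and 8.65 on water and 38.0 and 28.6 FPKM with serine. It crossed from below control (-1.13, adjusted p = 0.0482) to above it (0.65, adjusted p = 0.0935), and serine minus water was 1.77 with an interval from 1.34 to 2.20 (adjusted p = 0.200). Atf5, a transcription factor of amino acid and mitochondrial stress, had 508 and 442 FPKM in the controls, 222 and 256 on water and 541 and 476 FPKM with serine. Serine pools and controls overlapped, at a log2 fold change of 0.10 that was -0.08 under median-of-ratios scaling, and serine minus water was 1.09 (interval 0.74 to 1.44).

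Rab30, a small GTPase of the Golgi, moved the other way. It had 24.1 and 23.4 FPKM in the controls, 50.9 and 44.5 on water and 19.4 and 16.2 FPKM with serine. Serine minus water was -1.40 with an interval from -1.76 to -1.04 (adjusted p = 0.200), and the serine pools lay below control (-0.41, adjusted p = 0.152). Orm2, an orosomucoid of the acute phase with close copies, was 1.94 on water and 0.64 with serine, and C9orf72, a protein of membrane traffic and autophagy, was 1.56 and 0.74. The histone gene H2bc4, also one of many copies, was -1.39 on water and -0.65 with serine. Sdr9c7, a short-chain dehydrogenase, had 27.2 and 29.1 FPKM in the controls, 6.42 and 7.06 on water and 13.3 and 12.4 FPKM with serine. It was called in both comparisons, at -1.99 on water and -1.10 with serine (adjusted p = 0.0370), and serine minus water was 0.88 with an interval from 0.55 to 1.22.

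**Figure D5:**
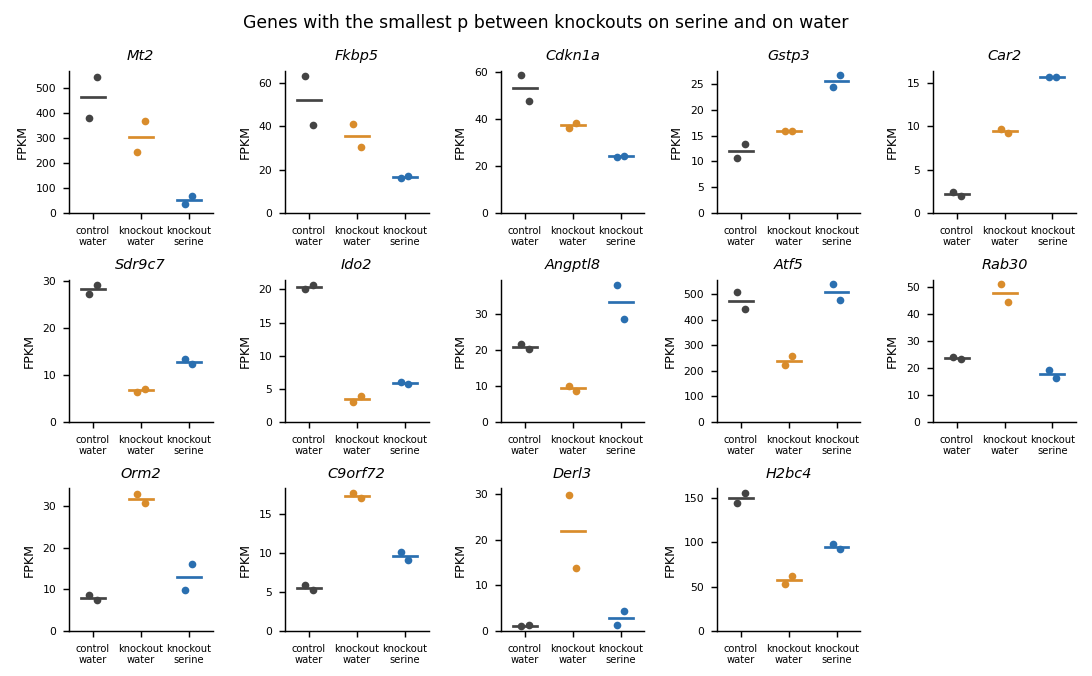
Each panel is a gene, with FPKM on the y axis starting at 0, a point for each library and a bar at each group's mean; the genes are 14 of those called against control with serine or on water that had the smallest p between the 2 knockout groups. The serine points of Mt2 (38.1 and 69.2) lie below every other library, and those of Atf5 (541 and 476) among the controls.

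Derl3, which helps move misfolded proteins out of the endoplasmic reticulum, had the widest gap of the 8 genes called on water that were chosen for their small p between the drinks. It had 1.12 and 1.19 FPKM in the controls, 29.9 and 13.8 on water and 1.21 and 4.45 FPKM with serine. Serine minus water was -2.84, with an interval from -4.16 to -1.53. The chaperone list it belongs to had no called member of 24 with serine, and a median of 0.01 (0.15 below the median gene), which was -0.17 under median-of-ratios scaling, against 0.42 on water. Hspa5, the lead chaperone BiP, had 274 and 270 FPKM in the controls, 626 and 442 on water and 170 and 362 FPKM with serine. Its serine pools lay on either side of the controls, and serine minus water was -1.08 (interval -1.92 to -0.24). That interval was wholly below 0 for 6 of 24 members and above 0 for none, against 227 and 578 of all 11134 genes tested. The first serine pool had lower values than the second for most genes of the chaperone list, as for Creld2 with 14.2 and 54.8 FPKM and Sdf2l1 with 4.23 and 16.0 FPKM.

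The remaining genes of large change had varied roles. Ly6d, a surface protein anchored by lipid, rose by 3.44 from 2.71 and 6.18 FPKM to 79.1 and 31.2 FPKM (adjusted p = 0.0485). Olig1, a transcription factor best known from oligodendrocytes, rose by 2.73 (adjusted p = 0.0350), and the transcript AA986860 by 2.87. Pspc1, a protein of nuclear paraspeckles, rose by 1.86, as did Spata24, and the actin-associated Synpo by 1.85. Asic5, a channel of the acid-sensing family, fell by 2.29 from 24.4 and 16.1 FPKM to 4.63 and 2.89 FPKM. Slc2a5, the fructose transporter, fell by 1.47 and As3mt, which methylates arsenic, by 1.25. Hmox1, haem oxygenase, rose by 1.26 as the only call among 31 genes of the NRF2 and glutathione list. Among 20 clock genes 1 rose and none fell, with a median of 0.68 (0.52 above the median gene), and the clock-controlled kinase gene Wee1 had 0.45 and 0.69 FPKM in the controls and 2.39 and 3.16 FPKM with serine (1.61, adjusted p = 0.0506). Elovl3, a fatty acid elongase, rose by 0.99, and it and Mup20, which fell, were the only calls among 28 male-biased genes. Of those 28, 20 had negative values. Their median was -0.41, which was 0.57 below the median gene and -0.59 under median-of-ratios scaling. Amylase 1 (Amy1) fell by 1.14 from 158 and 147 FPKM to 78.9 and 60.1 FPKM and was picked after its value was seen. Of 60 cytosolic ribosomal protein genes 1, Rpl3, was called (0.88, adjusted p = 0.0486), against 0.853% of all genes called higher. The median of the 60 was 0.27 (0.11 above the median gene). Copies across the genome make these levels uncertain.

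Further lists had no called member. Bile acid synthesis and transport had a median of -0.20 over 23 genes, 0.36 below the median gene, with Nr0b2, a repressor of that pathway, at -1.98 (adjusted p = 0.0855). Xenobiotic cytochrome P450 genes had -0.33 over 21, 0.49 below the median gene. Female-biased genes had -0.03 over 8 and cell cycle genes 0.08 over 12, which were 0.19 and 0.08 below the median gene, the latter at -0.08 under median-of-ratios scaling. The pentose phosphate pathway had 0.22 over 13, 0.06 above the median gene. The p53 list, in which Cdkn1a was the only call, had -0.05 over 18, 0.21 below the median gene.

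Markers of liver cell types were compared as well. Hepatocyte markers summed to 79204 and 72212 FPKM in the controls and 66994 and 63836 FPKM with serine, with no member called of 10 tested and a median of -0.25, or 0.41 below the median gene. Albumin, the defining marker, was the most abundant of them in each library. Stellate cell and matrix markers had positive values for 11 of 11 members with serine, a median of 0.44 (0.28 above the median gene), and sums of 142 and 116 FPKM in the controls and 203 and 167 FPKM with serine, with none called. All 11 were also positive under median-of-ratios scaling, and without it 66.3% of all genes were. Kupffer cell, endothelial and blood markers had medians of 0.27, 0.07 and 0.33 and no call. Relative to the median gene these were 0.11, -0.09 and 0.17, and under median-of-ratios scaling 0.10, -0.10 and 0.15, so the endothelial value turned in sign. Of 13 markers of bile duct and progenitor cells, 5 were tested, and 1, Sox9, fell by 1.85 from 3 and 2.32 FPKM to 0.39 and 0.35 FPKM (adjusted p = 0.0485). Their sums overlapped, at 38.2 and 46.9 FPKM in the controls and 49.2 and 32.6 FPKM with serine, and 1 of the 13 was at 0 in all libraries. Aldh1b1, a mitochondrial aldehyde dehydrogenase, was the only call of 12 periportal markers, at 1.35. Lymphocyte and neutrophil markers had 3 tested members and sums of 6.46 to 9.94 FPKM, with Camp and Mpo at 0, and of the pancreas and adipose markers Prss1, Ins2, Adipoq, Lep and Retn were at 0. The part of the stellate and other marker levels in the results above was not tested.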

How the data were processed

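Liver RNA-seq of 6 libraries in 3 groups was analysed from the authors' deposited FPKM per gene. Per the submitters' processing notes, base calls came from bcl2fastq, reads were aligned with HISAT2 2.0.5, and the genome was GRCm39. The program behind the FPKM values, its gene annotation and whether counting used strand were not given in the sources used here, so reads of a gene and of an overlapping or antisense partner cannot be told apart. Per the labels' protocols, RNA was extracted with Trizol. Genes averaging at least 1 FPKM over all libraries were tested on log2(FPKM + 0.5) with limma 3.58.1 in R 4.3.3 (3 group means over all 6 libraries, then eBayes with a variance trend; 3 residual and 3.46 prior degrees of freedom), two-sided, with Benjamini-Hochberg adjustment over all genes tested and calls at 0.05. The SE given is limma's moderated one and intervals are 95%. Intervals are not adjusted for the number of genes. No count model was fitted, since the values are FPKM.

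Depth was estimated from low values of single-exon genes: with the step kept, 85.2% to 89.7% of values were whole multiples of 1 fragment within a tolerance of 0.03, against 13.5% to 14.2% by chance. The genes named were Gapdh, the 14 higher and 14 lower called genes of largest change averaging at least 5 FPKM in a compared group, non-overlapping libraries and a proper symbol, the called members of each list (up to 8, or the 3 of smallest p where fewer than 2 passed), and, as descriptions, 8 called genes in each comparison with control that had the smallest p between knockouts on serine and on water. Other list members are named as examples, and a few genes that the rule names are not reported here. The comparison, the members and the 27 gene lists, 10 marker lists and 4 added lists were chosen with earlier results of these data known. Promoters came from RefSeq (GRCm38.p6) by symbol. The fit was tested on simulated data. The 15 alternatives covered pseudocount, filter, scaling, variance trend, replicate block, the libraries fitted and each library left out.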

Additional observations from a re-analysis of the deposited data

How the results depend on the processing

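Gapdh was called in all 15 alternatives, with log2 fold changes from -5.97 to -5.62 and adjusted p-values up to 0.0234. The number of other calls moved widely. Against 95 higher and 36 lower genes, a filter at a mean FPKM of 5 gave 372 and 78, no filter gave 2 and 1, median-of-ratios scaling 15 and 20, TPM scaling 389 and 60, no variance trend 4 and 4, and only the 4 libraries compared 4 and 3. Leaving out one library at a time gave 1 to 152 higher and 2 to 87 lower genes; the highest counts came without the first serine pool, and 81 of the 131 calls were among them. Pseudocounts of 0.1 and 1 kept 129 and 130 of the 131 calls. Between knockouts on serine and on water, calls ranged from 0 to 3 over the fits that left out one library and were 0 in the other alternatives run. The cause of these shifts was not tested.

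Same-numbered deviations of the replicates correlated at 0.03, 0.04 and -0.20 between groups. With 2 pools a group, these values cannot show whether the replicate numbers pair the libraries. A fit with the replicate number as a block gave 2 higher and 2 lower genes (Car2, Gm43778, Mt2 and Gapdh). The median of the lymphocyte and neutrophil markers had no value with the filter at 5, which none of them passed. With 2 pools a group, lists of calls are incomplete. The median interval half-width of 0.50 on the log2 scale is a limit before adjustment, and larger differences can also have been missed. A gene set apart by 1 library cannot be told apart from a difference between mice, since each pool holds 2 animals.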
